A study of Rattus norvegicus with 6 samples.

Results

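The interferon response genes of the rat were followed from intact to crushed sciatic nerve as a list of 41 named members: 3 sensors of viral RNA, 4 receptor chains, 7 transcription factors and 27 genes that interferons induce. Members were found by their symbol in the deposited table of 30957 Ensembl genes. Of the 41, 39 had a row under the exact symbol, Xaf1 was listed in capitals as XAF1, and Oas1b had no row. Of the 40 members with a row, 39 had at least 1 count in some nerve, and 34 had enough counts to be among the 12393 genes tested.

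Interferons are secreted proteins that tell cells of a virus or of damage. Type I interferons (IFN-α and IFN-β) act through the receptor chains IFNAR1 and IFNAR2, and type II interferon (IFN-γ) through IFNGR1 and IFNGR2. Kinases of the JAK family then activate STAT factors, which bind with IRF9 to the interferon-stimulated response element (ISRE) or, as pairs of STAT proteins, to the gamma-activated site (GAS), and switch on genes whose products block viral replication, present antigen or dampen the signal. Several of these genes are also switched on by interferon regulatory factors (IRFs) or by NF-κB without any interferon.

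RNA-seq covered 6 sciatic nerves of adult male Sprague Dawley rats, 3 of them crushed and 3 taken intact from the other side, and neither labels nor methods name a transgene or deletion. The methods give 4 days after the crush as the time and the stump proximal to the lesion as the tissue, whereas the labels give no time. The labels do not say whether the same number in both groups stands for 1 rat. The p-values measure only the spread between these samples. Library depth was even, with between 24844371 and 27139360 counts on genes per nerve, and 3 counts, the floor used here for a gene at 0, corresponded to 0.110 to 0.121 CPM (read counts divided by the TMM-scaled depth of each library). This floor covers counting error only, whereas the 95% intervals of the fold changes include the spread between nerves. Chi-square values over genes, divided by their degrees of freedom, were 3.38 to 12.4 among nerves of a group, above the value of 1 that counting noise alone gives.

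Markers of the labelled tissue were nearly absent from all 6 libraries. The Schwann cell factor Sox10 had at most 1 count per nerve, the myelin gene Mbp at most 1, and S100b at most 3. The leukocyte gene Ptprc (CD45) and the macrophage gene Adgre1 had 0 counts in every nerve, and 9 of the 12 myeloid markers had at most 10 counts in each nerve. The 5 genes of dividing cells were by contrast abundant, with a summed level of 3004 to 3225 CPM in intact and 2882 to 3015 CPM in crushed nerves. The groups are therefore called crushed and intact as their labels give them. In such bulk RNA, fewer cells of a type and less RNA per cell cannot be told apart.

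The interferon response genes did not move as a block. Of the 34 members tested, 9 rose in crushed nerves at an adjusted p under 0.05 (26.5%, against 1.47% of all 12393 genes tested): Rsad2, Ifngr2, Ifitm3, Irf1, Parp14, Parp9, Ifi35, Stat2 and Dtx3l. The members were chosen with earlier results of these data known. None of the 34 fell at that limit (against 1.65% of all genes) in edgeR, DESeq2 or limma, and none was lower at an unadjusted p under 0.05. The rises were modest, from 0.23 to 0.88 on the log2 scale, or from 1.18-fold for Dtx3l to 1.84-fold for Rsad2. No member therefore met the limits used in the study, an absolute log2 fold change above 1 with an unadjusted p under 0.001. Those limits were met by 0.282% of all genes tested, and DESeq2 and limma also placed 0 members past them. In edgeR, 11 of the 34 had an unadjusted p under 0.05, against 16.2% of all genes tested in either direction. The 25 members tested and not called lay between -0.18 and 0.33 on the log2 scale, and 15 of these were within 0.1 of no change.

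Over all 34 members, 26 had a positive and 8 a negative log2 fold change, with a median of 0.11, while 6126 of the 12393 genes tested were positive, with a median of -0.0017. In 14 of the 34 members (41.2%) the values of all 3 crushed nerves lay above those of all 3 intact nerves, against 10.8% of all genes tested. In no member did they all lie below, against 12.2% of all genes tested. The calls of Irf1, Rsad2 and Parp14 held under each of 13 other settings, whereas each of the other 6 was lost in some. The number of members called was 3 without crushed nerve 1 or without crushed nerve 2, 4 without crushed nerve 3 or without intact nerve 2, and 5 without intact nerve 3.

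**Figure D1:**
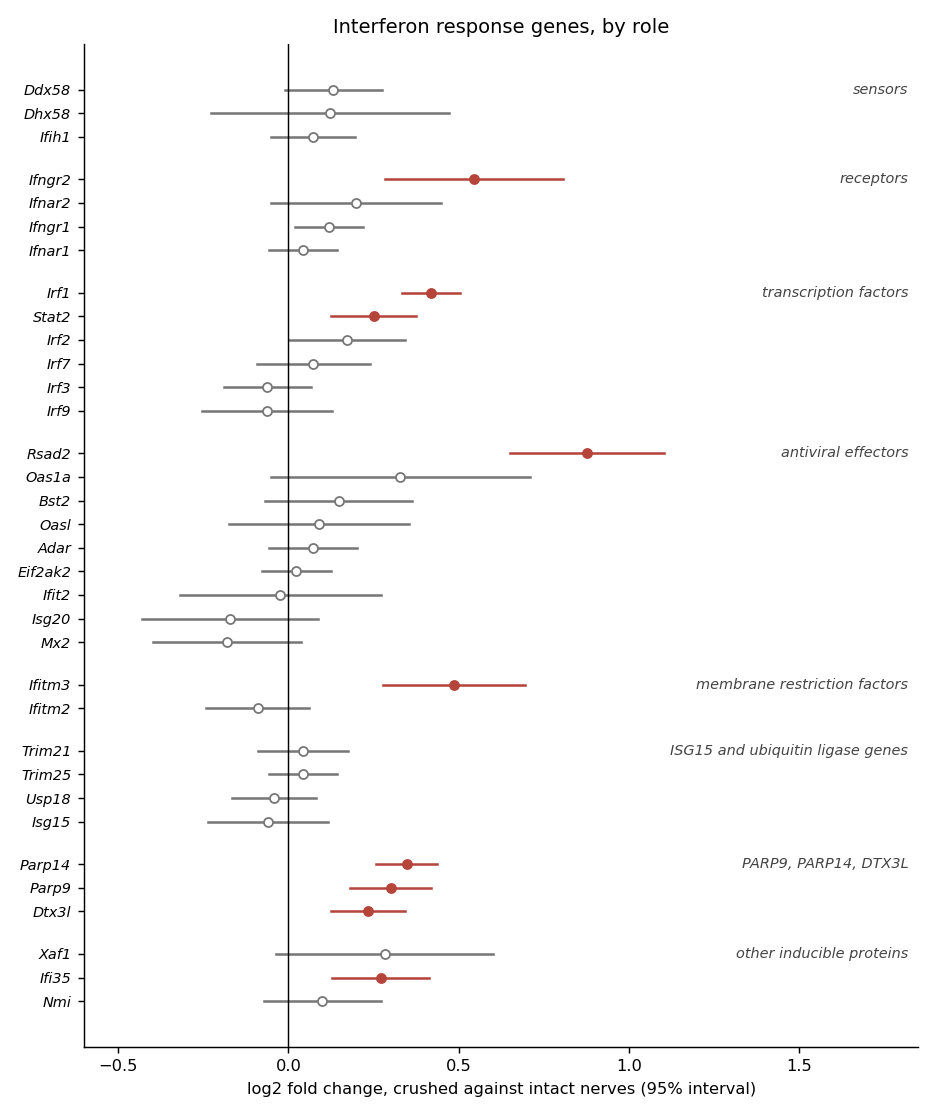
Log2 fold change (crushed against intact nerves, x axis) of the 34 members tested, grouped by role, each point with its 95% interval. Filled red points are the 9 members that rose at an adjusted p under 0.05, led by Rsad2 at 0.88, and open grey points are the other 25, most of them close to 0.

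Among the receptors, only the IFN-γ receptor chain IFNGR2, which brings the kinase JAK2 to the receptor, was called. Ifngr2 (chr11:31694339-31712611 in the table) had normalized levels of 20.7, 18.6 and 13.9 CPM in intact nerves 1, 2 and 3 and of 25.8, 26.1 and 25.9 CPM in crushed nerves 1, 2 and 3. The groups did not overlap, and the intact nerves were much more scattered than the crushed ones. The rise was 0.55 on the log2 scale, with a standard error of 0.118 (adjusted p = 0.0331, edgeR quasi-likelihood test). The call was lost in 4 of the 6 fits without 1 nerve and with limma on FPKM, and over all 6 fits that left out a nerve the log2 fold change ranged from 0.40 to 0.68.

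Ifngr1, the chain that binds IFN-γ, measured 63.0, 63.6 and 62.0 CPM in intact and 67.6, 69.5 and 67.9 CPM in crushed nerves. These groups did not overlap either, but the difference was small, with a log2 fold change of 0.12 and a 95% interval of 0.02 to 0.22 (adjusted p = 0.216, same test). The type I receptor chain Ifnar1, whose gene lies 30277 bases from Ifngr2, measured 81.4, 81.8 and 83.6 CPM in intact and 84.4, 87.7 and 82.2 CPM in crushed nerves. For Ifnar1 the log2 fold change was 0.04 with a 95% interval of -0.06 to 0.14, and the groups overlapped. Its partner Ifnar2 measured 16.2, 18.5 and 21.7 CPM in intact and 24.1, 19.4 and 21.2 CPM in crushed nerves, with overlap and a log2 fold change of 0.20 (95% interval -0.05 to 0.45). All 4 receptor chains were thus transcribed in both groups, from 6.75 ± 1.31 FPKM for Ifngr2 to 33.0 ± 0.362 FPKM for Ifngr1 in intact nerves (SD, n = 3), where FPKM is the deposited level scaled for gene length and depth.

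The interferons themselves were at or near 0. Of 9 ligand genes with a row, 6 had no count in any nerve, among them Ifnb1. The gene of IFN-γ, Ifng, had 1 count in crushed nerve 2 and none elsewhere, Ifna5 had 1 count in 1 nerve of each group, and Ifne had 3, 2 and 4 counts in intact and 1, 3 and 4 counts in crushed nerves. A count of 0 allows a level of up to 0.121 CPM in these libraries, and no difference in a ligand was detectable at this depth.

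Of 6 transcription factors tested, 2 were called. In 4 of the 6 (66.7%, against 10.8% of all genes tested) the crushed nerves all lay above the intact ones. Irf1 (chr10:39109522-39116531), a factor induced by IFN-γ and by NF-κB that activates many of the other members, had the smallest p of all members. It measured 100.6, 102.0 and 99.99 CPM in intact nerves 1, 2 and 3 and 135, 134 and 136 CPM in crushed nerves 1, 2 and 3. The replicates were nearly level within each group and the groups lay far apart. Irf1 was 1.34-fold higher in crushed nerves, or 0.42 ± 0.0389 on the log2 scale (estimate ± standard error, adjusted p = 0.000158, edgeR quasi-likelihood test), and this stayed between 0.42 and 0.43 when each nerve was left out. Stat2 (chr7:2691369-2707741), the STAT that acts with IRF9 on the ISRE, measured 58.7, 61.0 and 57.5 CPM in intact and 74.1, 70.8 and 65.7 CPM in crushed nerves. The estimate for Stat2 was 0.25 ± 0.0563 (log2, standard error; adjusted p = 0.0394, same test). Its call was lost in 5 of the 6 fits without 1 nerve, with limma on FPKM and with the replicate number as a block.

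Irf9, the DNA-binding partner of STAT2, measured 17.9 ± 0.839 CPM in intact and 17.2 ± 1.59 CPM in crushed nerves (SD, n = 3), a log2 fold change of -0.06 with a 95% interval of -0.25 to 0.13. Irf7, the factor that amplifies type I interferon production, had a log2 fold change of 0.07 (95% interval -0.09 to 0.24). Irf3, which starts that production after viral sensing, had a log2 fold change of -0.06 (95% interval -0.19 to 0.07). For Irf2, which competes with IRF1 for its sites, it was 0.17 (unadjusted p = 0.0470 from edgeR, adjusted p = 0.299). The groups did not overlap in Irf2, with 17.9 to 19.7 CPM in intact and 20.2 to 23.0 CPM in crushed nerves. In Irf7 they were parted only narrowly, at 14.86 CPM at most in intact and 14.89 CPM at least in crushed nerves. Irf8, a factor of myeloid cells, had 0 counts in all 6 nerves. The tables of loci overlap for 2 members, Irf3 with Bcl2l12 over 865 bases and Irf7 with Phrf1 over 65 bases, and since the strand used in counting is not stated, reads of these pairs cannot be told apart there.

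Of the antiviral effectors, 13 of 14 had a row and 9 were tested, and 1 was called. Rsad2 (chr6:45655954-45669148) encodes viperin, an enzyme that makes a chain-terminating nucleotide from CTP. It measured 5.93, 5.61 and 6.18 CPM in intact nerves 1, 2 and 3 and 10.9, 9.94 and 11.7 CPM in crushed nerves 1, 2 and 3. Every crushed nerve lay well above every intact one. The rise of Rsad2 by 0.88 ± 0.102 (log2, standard error; adjusted p = 0.000778, edgeR quasi-likelihood test) was the largest of the members tested and ranged from 0.82 to 0.94 over the fits that left out 1 nerve, although its level was low, at 1.60 ± 0.0795 FPKM in intact and 2.98 ± 0.238 FPKM in crushed nerves (SD, n = 3). On log2(FPKM + 1), where low genes are compressed, it was 0.61. Cmpk2, a nucleotide kinase gene 14085 bases away that is known to be induced together with Rsad2, was on the list of other pathway genes. It had 164, 186 and 149 counts in intact and 282, 269 and 269 counts in crushed nerves, a log2 fold change of 0.66 (adjusted p = 0.00381, same test).

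The other 8 effectors tested were not called. Mx2, a dynamin-like GTPase, measured 13.0, 13.2 and 11.7 CPM in intact and 9.996, 12.2 and 11.3 CPM in crushed nerves, with overlap and a log2 fold change of -0.18 (95% interval -0.40 to 0.04). Isg20, an exonuclease, was at -0.17, the RNA-binding protein gene Ifit2 at -0.02, and the kinase gene Eif2ak2 (PKR), which halts translation on double-stranded RNA, at 0.02 with a 95% interval of -0.08 to 0.12. Adar, which edits adenosine in double-stranded RNA, was at 0.07. Bst2, the membrane tether of budding virus, was at 0.15 (95% interval -0.07 to 0.36), with intact nerves that ran from 50.8 to 69.4 CPM. Oas1a, a sensor that activates RNase L, was low, with 42, 39 and 36 counts in intact and 55, 51 and 47 counts in crushed nerves. The groups did not overlap, and the log2 fold change was 0.33 with an adjusted p of 0.383 from edgeR. Its 95% interval was wide, from -0.05 to 0.71. Oasl was at 0.09.

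Several classic interferon-stimulated genes were at the limit of detection in both groups. Ifit1 had 3 counts in intact nerve 2 and 0 in the others, and Oas2 had 0, 2 and 3 counts in intact nerves and 0 in each crushed nerve. Mx1 had 0, 0 and 5 counts in intact and 1, 2 and 2 counts in crushed nerves. Ifit3 had 6, 9 and 4 counts in intact and 8, 11 and 7 counts in crushed nerves (adjusted p = 0.726 from edgeR with no filter on low counts). Ifitm1 had 6, 3 and 0 counts in intact and 0, 8 and 5 counts in crushed nerves (adjusted p = 0.868, same fit). These 5 genes and Irf8 are the 6 members with a row that were not tested, and no difference was detectable for them at this depth. Reads could be split between similar copies in the Ifit, Ifitm, Mx and Oas families.

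**Figure D2:**
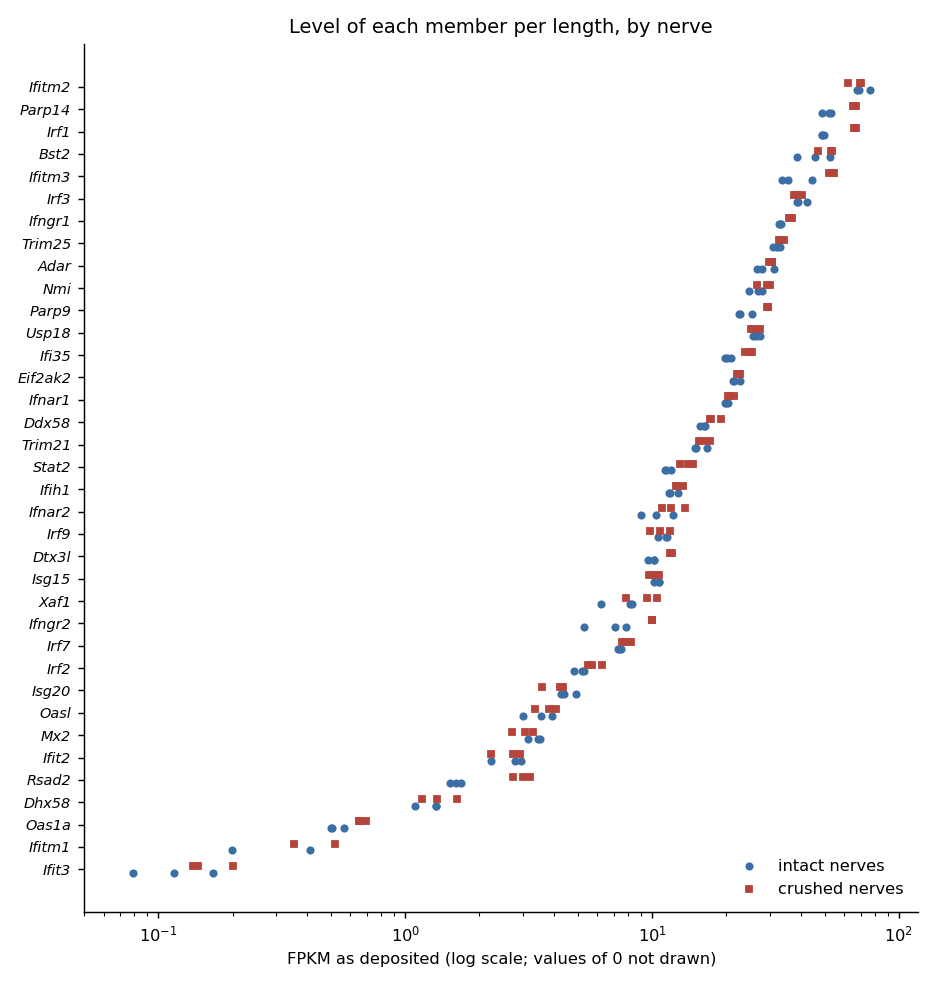
Level of the members above 0.1 FPKM in each nerve on a log scale (x axis: FPKM as deposited), intact nerves as blue circles and crushed nerves as red squares, ordered by mean. Ifitm2, Parp14 and Irf1 were the most abundant, and the classic effectors Rsad2, Oas1a and Ifit3 lie near the bottom in both groups.

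Per length, the order of the members was led by Ifitm2 at 70.8 ± 4.58 FPKM, Parp14 at 51.2 ± 2.23 FPKM and Irf1 at 49.0 ± 0.501 FPKM in intact nerves (SD, n = 3 each). Bst2, at 45.7 ± 6.89 FPKM, was not separated from Irf1 beyond its spread, nor were Irf3, at 40.1 ± 2.16 FPKM, and Ifitm3, at 37.8 ± 5.73 FPKM, from each other. In crushed nerves Irf1 reached 66.3 ± 0.402, Parp14 66.0 ± 0.724 and Ifitm2 67.2 ± 4.34 FPKM, and these 3 did not differ beyond the spread of Ifitm2. The median level of the 34 members tested was 14.3 FPKM, against 12.8 FPKM for all genes tested.

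The IFITM proteins sit in membranes and block the fusion of virus with the cell, and their genes lie together on chromosome 1. Ifitm3 (chr1:213810696-213811901) measured 31.3, 25.01 and 23.6 CPM in intact nerves 1, 2 and 3 and 37.8, 38.0 and 36.2 CPM in crushed nerves 1, 2 and 3. The groups did not overlap, and intact nerve 1 lay closest to the crushed nerves. Ifitm3 rose by 0.49 ± 0.0943 (log2, standard error; adjusted p = 0.0189, edgeR quasi-likelihood test), and the call was lost in 5 of the 6 fits without 1 nerve. Over all 6 of these fits the log2 fold change ranged from 0.41 to 0.62. Ifitm2, 59290 bases away, measured 50.9, 45.9 and 44.9 CPM in intact and 45.7, 46.3 and 41.0 CPM in crushed nerves, with overlap and a log2 fold change of -0.09 (95% interval -0.24 to 0.06). The ratio of Ifitm3 to Ifitm2, in FPKM, was 0.583, 0.516 and 0.497 in intact and 0.782, 0.777 and 0.836 in crushed nerves. This ratio was formed after the values were seen and is given without a test.

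PARP9 and DTX3L form a complex that joins ADP-ribosylation to ubiquitin ligase activity, and PARP14 is a related ADP-ribosyltransferase. All 3 genes rose. Their loci lie on chromosome 11, with Parp9 and Dtx3l 1128 bases apart and Parp14 337746 bases further. Parp14 (chr11:68105369-68137535) measured 354, 376 and 382 CPM in intact nerves 1, 2 and 3 and 467, 470 and 477 CPM in crushed nerves 1, 2 and 3. The groups were far apart, with a rise of 0.35 ± 0.0404 (log2, standard error; adjusted p = 0.000780, edgeR quasi-likelihood test). Parp9 (chr11:67724076-67756799) measured 71.4, 80.8 and 71.9 CPM in intact and 92.2, 92.6 and 91.2 CPM in crushed nerves. Intact nerve 2 lay nearest to the crushed nerves, and the rise was 0.30 ± 0.0544 (log2, standard error; adjusted p = 0.0137, same test), a call lost when any 1 crushed nerve was left out. Dtx3l (chr11:67757928-67767622) measured 47.9, 50.6 and 50.3 CPM in intact and 58.9, 58.3 and 57.7 CPM in crushed nerves. Dtx3l rose by 0.23 ± 0.0493 (log2, standard error; adjusted p = 0.0294, same test). Its call was lost in 5 of the 6 fits without 1 nerve, with limma on FPKM and with the replicate number as a block. The ratio of Dtx3l to Parp9, in FPKM, was between 0.402 and 0.448 in intact and between 0.403 and 0.410 in crushed nerves.

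**Figure D3:**
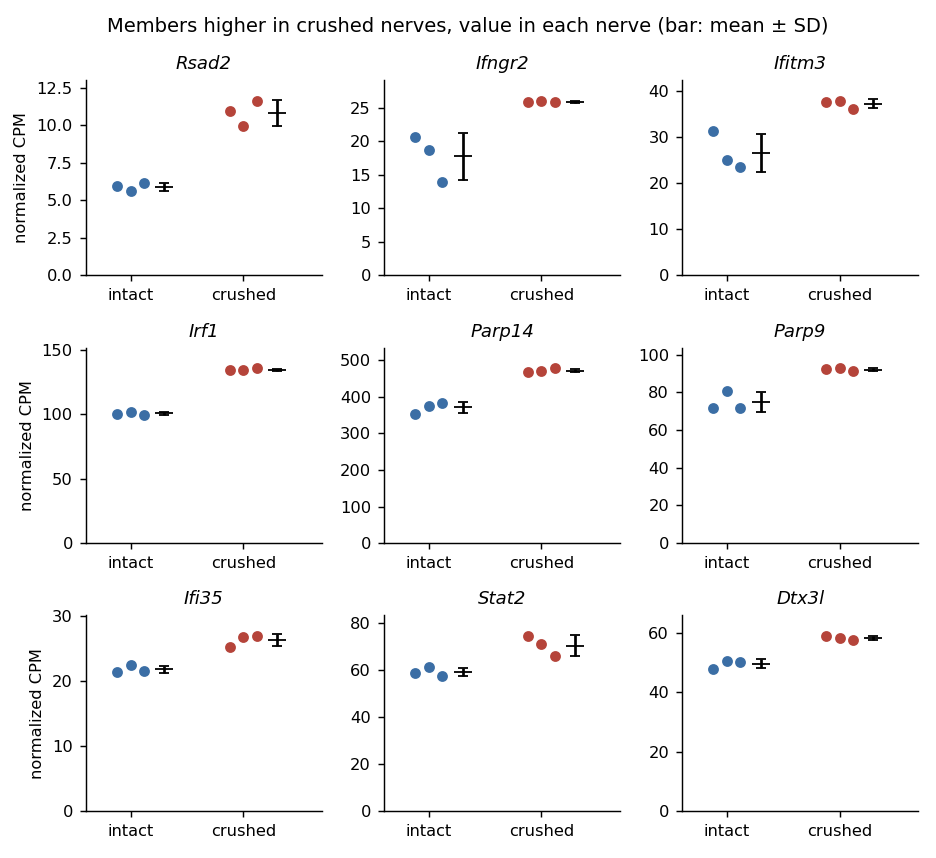
Normalized CPM (y axis, from 0) of the 9 members that rose, 1 point per nerve, intact in blue and crushed in red, with the mean and SD of each group in black. In each panel the 3 crushed nerves lie above the 3 intact nerves, and the ratio of the group means is largest for Rsad2, from 5.90 ± 0.284 to 10.8 ± 0.859 CPM.

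ISG15 is an interferon-induced, ubiquitin-like protein that enzymes attach to other proteins, USP18 removes it and also shuts off the type I receptor, and TRIM25 and TRIM21 are ubiquitin ligases of viral sensing. None of these 4 genes was called. Isg15 measured 14.2, 13.5 and 14.0 CPM in intact and 12.7, 13.3 and 14.0 CPM in crushed nerves, a log2 fold change of -0.06 with a 95% interval of -0.23 to 0.12. Usp18 was at -0.04 (95% interval -0.17 to 0.08), Trim21 at 0.04 (-0.09 to 0.18) and Trim25 at 0.04 (-0.06 to 0.14). Over the 25 members that were not called, the upper bound of the interval lay under the log2 fold change of Irf1 in 21. It lay under 0.23, the smallest called rise (Dtx3l), in 14, so the other intervals reached into the range of the called rises.

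The RNA sensors were not called either. Ddx58, which encodes RIG-I, had a log2 fold change of 0.13 (95% interval -0.01 to 0.27), Ifih1, which encodes MDA5, of 0.07 (-0.05 to 0.20), and Dhx58, which encodes LGP2, of 0.12 (-0.23 to 0.47). In Ddx58 the groups did not overlap, from 28.3 to 29.4 CPM in intact and from 30.6 to 34.1 CPM in crushed nerves. Among the remaining inducible proteins, Ifi35 (chr10:89358376-89366626), a partner of NMI, measured 21.4, 22.5 and 21.6 CPM in intact and 25.3, 26.8 and 26.9 CPM in crushed nerves. The rise of Ifi35 was 0.27 ± 0.0643 (log2, standard error; adjusted p = 0.0494, edgeR quasi-likelihood test), just inside the limit. Its call was lost in all 6 fits without 1 nerve, with no filter on low counts and with the replicate number as a block. Nmi itself was at 0.10 (95% interval -0.07 to 0.27). Xaf1, a pro-apoptotic gene, was at 0.28 with a wide 95% interval of -0.04 to 0.60.

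Promoter sequences were searched for the letters of the interferon elements. RefSeq promoters on the GRCr8 build, from 250 bases before to 50 bases after the gene start, were matched for 30 of the 41 members. Those of Ddx58, Dhx58, Irf2, Ifit1, Ifit2, Mx2, Oas2, Adar, Ifitm1, Isg15 and Usp18 were not matched. On both strands, the ISRE core GAAANNGAAA was found in 16 of the 30 (53.3%), against 3.92% of all 33469 promoters of that length. The GAS core TTCNNNGAA was found in 9 (30%, against 8.87%) and the NF-κB core GGGNNTTTCC in 2 (6.67%, against 1.53%). Most members were listed because interferons induce them, so ISRE and GAS shares above those of all promoters are no separate result. By call, the ISRE core was present in 4 of the 9 members that rose and in 10 of the 17 matched members tested that were not called. It was thus found in both groups, and the difference between them was not tested. GAS cores were in 3 of the 9 and 4 of the 17, and 3 of the 9 held none of the 3 cores. A match of these letters is not evidence of binding.

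The ISRE cores of the 4 members that rose come first. Those of 4 of the 10 tested members with a core and no call follow. Each is shown in 30 bases of the gene's strand with the core in capitals. In Rsad2 the core reads in reverse. The core begins 147 bases before the start in Rsad2, 44 before in Ifitm3 and 76 before in Parp14, and at base 11 after it in Dtx3l. GAS cores also lie beside the ISRE in Parp14 and Ifitm3 and overlap these windows.
Rsad2 (chr6:48788248-48788277, minus strand): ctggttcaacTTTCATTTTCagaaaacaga
Ifitm3 (chr1:205541783-205541812, minus strand): caaaattcagGAAAAGGAAActtctgagaa
Parp14 (chr11:78408048-78408077, plus strand): tccaggaaatGAAAGTGAAAgaagtaagtt
Dtx3l (chr11:78320225-78320254, plus strand): cccgggaaacGAAACTGAAActttgcctct
Ifitm2 (chr1:205482362-205482391, minus strand): ccaccaacagGAAAAGGAAActgctagaga
Isg20 (chr1:142239957-142239986, plus strand): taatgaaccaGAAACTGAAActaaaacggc
Eif2ak2 (chr6:21941128-21941157, plus strand): agtccgccggGAAAACGAAAcagagagaac
Nmi (chr3:56848624-56848653, minus strand): tgaaataaacGAAAGTGAAAgaacggcctg

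Ifitm3, which rose, and Ifitm2, which was not called, carry the same 10 letters of the core. Parp14, which rose, and Nmi, which was not called, also share theirs. The part of the cores in the rises was not tested. Of the other members that rose, Irf1 held a GAS core and no ISRE core, and Ifngr2 held an NF-κB core, which reads in reverse. The promoters of Stat2, Parp9 and Ifi35 held none of the 3 cores in this window. Irf3, which was not called, held the same NF-κB letters as Ifngr2.
Irf1, GAS core (chr10:38417783-38417811, plus strand): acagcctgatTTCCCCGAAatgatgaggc
Ifngr2, NF-κB core (chr11:44265621-44265650, plus strand): ggaacgcccgGGAAAGTCCCgtgggtcgaa
Irf3, NF-κB core (chr1:104616569-104616598, plus strand): ccattagaaaGGAAAGTCCCaacgctcgga

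Other genes of the pathway were read from a list of 85 symbols, of which 71 had a row and 56 were tested. This list, too, was chosen with earlier results of these data known. Of the 56 genes, 6 (10.7%) rose at an adjusted p under 0.05 in edgeR (4 in limma on FPKM), against 1.47% of all genes tested. None fell in edgeR, DESeq2 or limma, against 1.65% of all genes tested in edgeR. In edgeR 20 had an unadjusted p under 0.05, 1 of them lower, against 16.2% of all genes tested in either direction. The kinase genes Jak1, Jak2 and Tyk2 were at 0.14, 0.09 and 0.01. Of 10 genes of nucleic acid sensing tested, Traf3, an adaptor that links sensors to interferon production and restrains NF-κB, was called at 0.40 (adjusted p = 0.00211, edgeR quasi-likelihood test). The sensor genes Tmem173 (STING) and Mb21d1 (cGAS), listed under these older symbols, were at 0.41 and 0.16 without a call.

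Of 38 other inducible genes tested, 4 were called (10.5%, against 1.47% of all genes tested). These were Cmpk2, the ubiquitin ligase gene Rnf213 (0.35, adjusted p = 0.000925), the ISG15-activating enzyme gene Uba7 (0.47, adjusted p = 0.0263) and Trim26 (0.19, adjusted p = 0.0350), all from edgeR. In 19 of the 38 (50%, against 10.8% of all genes tested) the crushed nerves all lay above the intact ones. In 3 they all lay below, against 12.2% of all genes tested. Uba7 overlaps Fam212a over 1126 bases. The median log2 fold change of the 56 genes was 0.14, and 47 of them were positive, against 49.4% of all genes tested. The calls of Traf3, Cmpk2 and Rnf213 held under all 13 other settings, and those of Trim26 and Uba7 under 6 each. Without crushed nerve 2, the number called was 3. The 34 inducible genes of these 38 that were not called ran, on the log2 scale, from -0.23 for Trim14 to 0.90 for Ddx60, an RNA helicase gene whose groups did not overlap (unadjusted p = 0.00813, adjusted p = 0.127, edgeR). These 2 ends of the range were named after their values were seen.

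**Figure D4:**
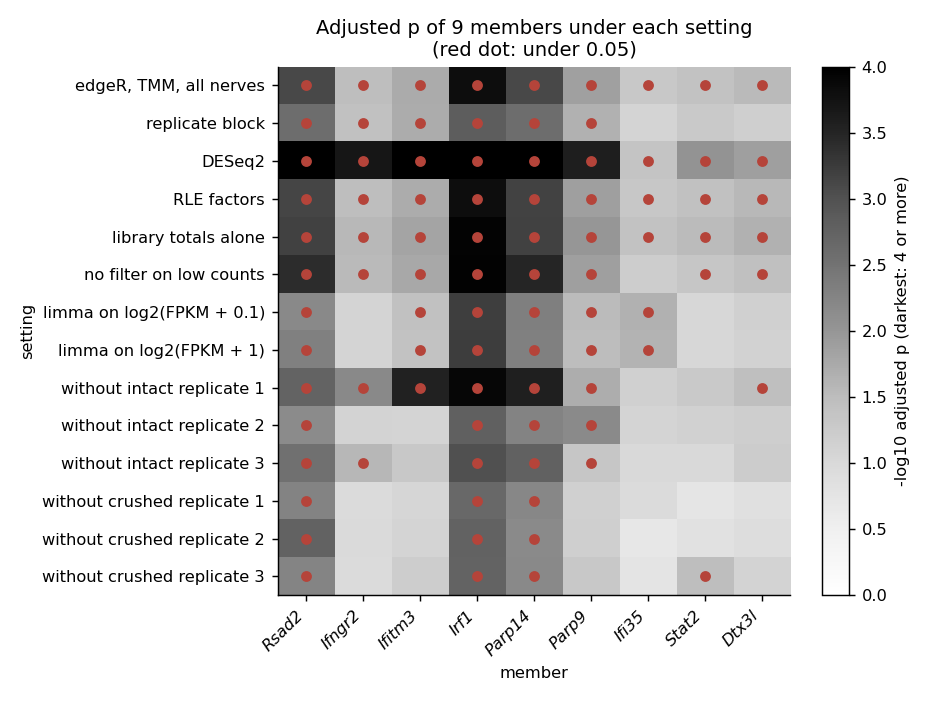
Adjusted p of the 9 members that rose (columns) under the test reported here and 13 other settings (rows), with darker cells for smaller values and a red dot where the adjusted p was under 0.05. Rsad2, Irf1 and Parp14 carry a dot in every row, and the other 6 members lose theirs in some rows.

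Cell type markers were read beside these rises. The 12 myeloid markers summed to 3.98 to 5.61 CPM in intact and 4.43 to 6.30 CPM in crushed nerves, 4 of them had no count, and none of the 3 tested was called. The 7 lymphocyte markers summed to at most 0.227 CPM in any nerve and the 4 neutrophil markers to at most 0.158 CPM. Fibroblast markers summed to 197 to 211 CPM in intact and 170 to 188 CPM in crushed nerves. Of the 8, 5 were tested and 3 fell, against 1.65% of all genes tested. These were Col1a1, Pdgfrb and Col3a1, with log2 fold changes of -0.69, -0.77 and -1.76 (adjusted p = 0.000662, 0.00106 and 0.0268 from edgeR). Col3a1 was low, with 22, 23 and 21 counts in intact and 10, 3 and 7 counts in crushed nerves. Thy1, the largest part of the sum, was at -0.23 without a call (adjusted p = 0.0552, same test). Pdgfra was at 0.19 without a call, and Dcn, Lum and Col1a2 had 0 counts. Of the 8 Schwann cell markers 3 were tested and 1 was called, Erbb3, which fell by 0.59 (adjusted p = 0.0222, same test). The 8 summed to 10.2 to 11.3 CPM in intact and 8.28 to 8.80 CPM in crushed nerves. Myelin markers summed to 57.5 to 61.6 and 57.0 to 57.5 CPM, most of it from Pmp22 and Prx, and endothelial markers to 1.17 to 1.90 and 1.92 to 2.47 CPM, with none called. The part of these shifts in the rise of the 9 members was not tested.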

How the data were processed

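RNA-seq of 6 sciatic nerves was used, 3 crushed and 3 intact, grouped by the sample titles. The authors deposited 1 table with raw read counts per Ensembl gene and FPKM values per nerve, and 0 other value columns were present. The submitters' processing notes name HISAT2, StringTie 1.3.0 and Rnor_6.0, the counting program is not given in the sources used here, and coordinates of genes are those of the table. The methods describe digestion with RNase R, which degrades linear RNA, and the labels do not. The main test was the quasi-likelihood F-test of edgeR 4.0.16 on the counts, in R 4.3.3 (TMM factors, filterByExpr, no block), across all 12393 genes that passed the filter, with Benjamini-Hochberg adjustment over these. Standard errors and 95% intervals come from the test statistic. CPM were normalized with TMM, and levels between genes were compared as FPKM only. Every member is accounted for, and those past the adjusted limit or 0.5 on the log2 scale, the receptors and members under 10 counts are given nerve by nerve. The calculation was tested on simulated data. The alternatives were a replicate block, DESeq2 1.42.0, RLE factors, library totals, no filter, limma 3.58.1 with a trend on log2(FPKM + 0.1) and log2(FPKM + 1), and each nerve left out. Results of some genes on the lists are not reported here. The members and lists were chosen with earlier results of these data known. The cores were matched by letters in RefSeq promoters (GRCr8). The depth per nerve, 24844371 to 27139360 counts, limits what can be seen in members under about 10 counts.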

Additional observations from a re-analysis of the deposited data

How the results depend on the processing

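The number of members that rose was 9, and ranged from 3 to 7 when each nerve in turn was omitted (7 without intact nerve 1). The number of other pathway genes that rose was 6, and 3 to 8 across these fits. Fewer nerves entered each of these fits. Members that fell, members past the study's limits and pathway genes that fell stayed at 0 under all 13 settings. The median log2 fold change of the members tested stayed between 0.08 and 0.13. RLE factors, library totals and DESeq2 kept all 9 calls, the fit with no filter kept 8 and limma on FPKM kept 6 with either pseudocount. The shorter ISRE core, without its last base, was found in the same number of member promoters, 16, but in 9.71% of all promoters.

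With the replicate number as a block (paired analysis), 6 of the 9 members were called, without Stat2, Dtx3l and Ifi35, and 5 pathway genes, among them Traf3, Cmpk2 and Rnf213 but neither Trim26 nor Uba7. The deviations of nerves with the same number were correlated at -0.00965 to 0.0709 across genes, and the labels do not say whether a number stands for 1 rat.

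Signs turned in 3 members near 0. Across the fits that omitted 1 nerve, Dhx58 ranged from -0.0095 (without crushed nerve 2) to 0.22, Oasl from -0.0077 (without intact nerve 3) to 0.19, and Ifit2 from -0.13 to 0.083, with positive values without intact nerve 1, intact nerve 2 or crushed nerve 2. The cause was not tested.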
